A study of Mus musculus with 5 samples.

Results

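Cyclic AMP (cAMP) and cyclic GMP (cGMP) are made by cyclases, broken down by phosphodiesterases and read by kinases. The messenger RNAs of 51 genes for these proteins were followed in mouse hearts. They were all protein-coding genes whose symbol names an adenylyl cyclase (Adcy), a guanylyl cyclase (Gucy), a phosphodiesterase (Pde), a subunit of protein kinase A (PKA; Prkar, Prkac) or a cGMP-dependent kinase (PKG; Prkg). The tables held 49315 genes, 21811 of them protein-coding. The rule itself uses names and no measured value, but the set was chosen with earlier results of these data known. By substrate, 24 members belonged to the cAMP arm (10 adenylyl cyclases, 6 PKA subunits, 8 cAMP-specific phosphodiesterases) and 19 to the cGMP arm (9 guanylyl cyclases, 8 cGMP-specific phosphodiesterases, 2 kinases). The other 8 were phosphodiesterases that cleave both nucleotides.

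Hearts came from mice kept for 18 weeks on a high-fat, high-sucrose diet (labelled HFHS-Fe, 3 libraries) or on standard chow (chow-Fe, 2 libraries). All of these mice, chow-fed ones included, had received 1 intravenous dose of iron dextran, an iron and sugar polymer complex. Hearts were taken 48 hours later, after perfusion with buffered saline, and poly-A RNA was sequenced. The values therefore compare the diets after iron, with no library lacking iron. Strain, sex and age are not stated in the labels. The sample labels give a replicate number and do not say whether the libraries were from separate mice. The p-values therefore set each difference against the spread between these libraries, which may be technical.

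In heart muscle, adrenaline and noradrenaline act through beta-adrenergic receptors and the G protein Gs on adenylyl cyclase. The cAMP made there releases the catalytic subunits of PKA from its regulatory subunits, and PKA phosphorylates calcium channels, phospholamban and myofilament proteins, which raises the rate and force of contraction. Nitric oxide raises cGMP through soluble guanylyl cyclase, natriuretic peptides raise it through membrane receptors, and cGMP activates PKG. Phosphodiesterases keep both signals local, and some that cleave cAMP are inhibited or stimulated by cGMP, which ties the arms together.

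The libraries held 14362766 to 16546113 counts in HFHS hearts and 17331356 to 17774735 in chow hearts. Levels are given as CPM, counts scaled to the size of the library. The limit that a count of 0 allows (3 counts; counting error only) was 0.181 to 0.209 CPM in HFHS and 0.169 to 0.173 CPM in chow. The defining cardiomyocyte genes were abundant in every library, with a summed level of 62140 to 65220 CPM in HFHS and 54470 to 60830 CPM in chow. The lung markers Sftpc, Sftpa1 and Scgb1a1 were at 0 in every library, and Sftpb had 0 to 2 counts. Of the sex markers, Xist had 1 to 5 counts in every library. The Y-linked gene Ddx3y had 82.0 to 84.5 CPM in HFHS and 52.5 to 57.9 CPM in chow, the pattern of male tissue. With edgeR, 14221 genes were tested and 5417 of them (38.1%) had a Benjamini-Hochberg adjusted p under 0.05. Of all genes tested, 19.4% were higher in HFHS and 18.7% lower, so a call by itself was common. At least 1.5-fold calls were made for 17.3% of genes (7.57% higher, 9.75% lower). The groups did not overlap in CPM for 58.5% of genes.

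The 250 bases upstream of the transcription start are shown for the 3 members with the largest increases, Pde11a, Prkg1 and Adcy9, and for the member window that held a full cAMP response element. That element, TGACGTCA, is the classic site of the CREB family, transcription factors that PKA phosphorylates. Capitals mark the element or its shorter form TGACG, searched on both strands (CGTCA where it lies on the other strand). Sequences are from RefSeq, build GRCm38.p6, read 5′ to 3′ on the strand of the gene.
Adcy9, chr16:4420499-4420748, minus strand: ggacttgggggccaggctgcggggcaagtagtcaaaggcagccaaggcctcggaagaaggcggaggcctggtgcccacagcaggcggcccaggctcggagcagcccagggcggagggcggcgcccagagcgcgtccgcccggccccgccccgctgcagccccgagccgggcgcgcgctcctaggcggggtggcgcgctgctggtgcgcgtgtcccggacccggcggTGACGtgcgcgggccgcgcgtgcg
Pde11a, chr2:76338939-76339188, minus strand: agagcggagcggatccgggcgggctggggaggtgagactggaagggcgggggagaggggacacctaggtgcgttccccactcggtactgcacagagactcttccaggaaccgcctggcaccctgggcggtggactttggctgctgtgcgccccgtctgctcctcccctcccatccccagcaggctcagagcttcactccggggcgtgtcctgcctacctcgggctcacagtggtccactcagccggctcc
Prkg1, downstream start, chr19:31664371-31664620, minus strand: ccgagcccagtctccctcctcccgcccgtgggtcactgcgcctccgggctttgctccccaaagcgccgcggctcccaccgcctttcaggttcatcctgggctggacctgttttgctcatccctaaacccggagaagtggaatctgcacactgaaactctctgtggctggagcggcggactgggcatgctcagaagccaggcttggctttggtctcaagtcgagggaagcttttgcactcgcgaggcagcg
Prkg1, upstream start, chr19:31765034-31765283, minus strand: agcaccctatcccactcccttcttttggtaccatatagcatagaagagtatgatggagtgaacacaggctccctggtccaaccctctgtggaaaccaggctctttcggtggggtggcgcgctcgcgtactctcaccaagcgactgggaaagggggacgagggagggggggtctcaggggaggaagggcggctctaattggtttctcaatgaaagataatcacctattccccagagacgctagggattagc
Prkar1a, chr11:109650699-109650948, plus strand: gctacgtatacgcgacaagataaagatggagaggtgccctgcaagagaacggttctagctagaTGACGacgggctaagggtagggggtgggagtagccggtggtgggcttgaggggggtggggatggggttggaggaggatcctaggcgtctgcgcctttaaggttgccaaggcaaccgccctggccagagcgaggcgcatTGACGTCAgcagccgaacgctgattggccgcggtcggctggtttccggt

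Adcy9 held 1 short site near its start, and neither Pde11a nor the pair of Prkg1 windows held any. The Prkar1a window held the full element, which counts as a short site on each strand, and 1 further short site. RefSeq windows of 40 of the 51 members were used (80 windows, since genes with several starts have several). Member windows on chromosome 18, where Pde6a lies, were left out, while the windows of all genes kept that chromosome. The full element was in 1 of the 80 (1.25%), against 508 of 32851 windows of all genes (1.55%). A short site was in 16 of the 80 (20.0%), against 17.8% of windows of all genes. Among members higher in HFHS, 10 genes had 16 windows, of which 0 held the full element and 4 (25%) a short one. These matches describe the printed letters and are not measured binding sites.

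Pde11a, Prkg1 and Adcy9 had the largest differences among the members, at 7.36-fold, 4.74-fold and 3.54-fold higher in HFHS than in chow. Prkar2a, Pde7b and Pde4d were also at least 1.5-fold higher, and Pde3b was 1.59-fold lower. Of the 51 members, 38 had enough counts to be tested and 13 did not. Of the tested members 14 were called, 12 higher in HFHS and 2 lower, which is 36.8% of the 38 and close to the 38.1% of all genes. In the cAMP arm 9 of 22 tested members rose and 0 fell, with a median log2 fold change of 0.29, against −0.01 over all genes tested. The cAMP median was 0.12 without chow replicate 1 and 0.32 without HFHS replicate 2. After the adjustment for exon length and GC content given below, it was 0.11. Among the 8 dual phosphodiesterases 2 rose and 2 fell, with a median of −0.10. In the cGMP arm 1 of 8 tested members rose and 0 fell, with a median of −0.20. That median was −0.01 without HFHS replicate 2 and −0.30 without HFHS replicate 1, and the dual median lay between −0.20 and −0.02 without each library in turn. The groups did not overlap for 20 of the 38 members, 11 of them in the cAMP arm, 6 among the dual enzymes and 3 in the cGMP arm, beside 58.5% of all genes. Called changes of at least 1.5-fold numbered 7 of the 38, 6 higher and 1 lower, beside 17.3% of all genes.

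**Figure D1:**
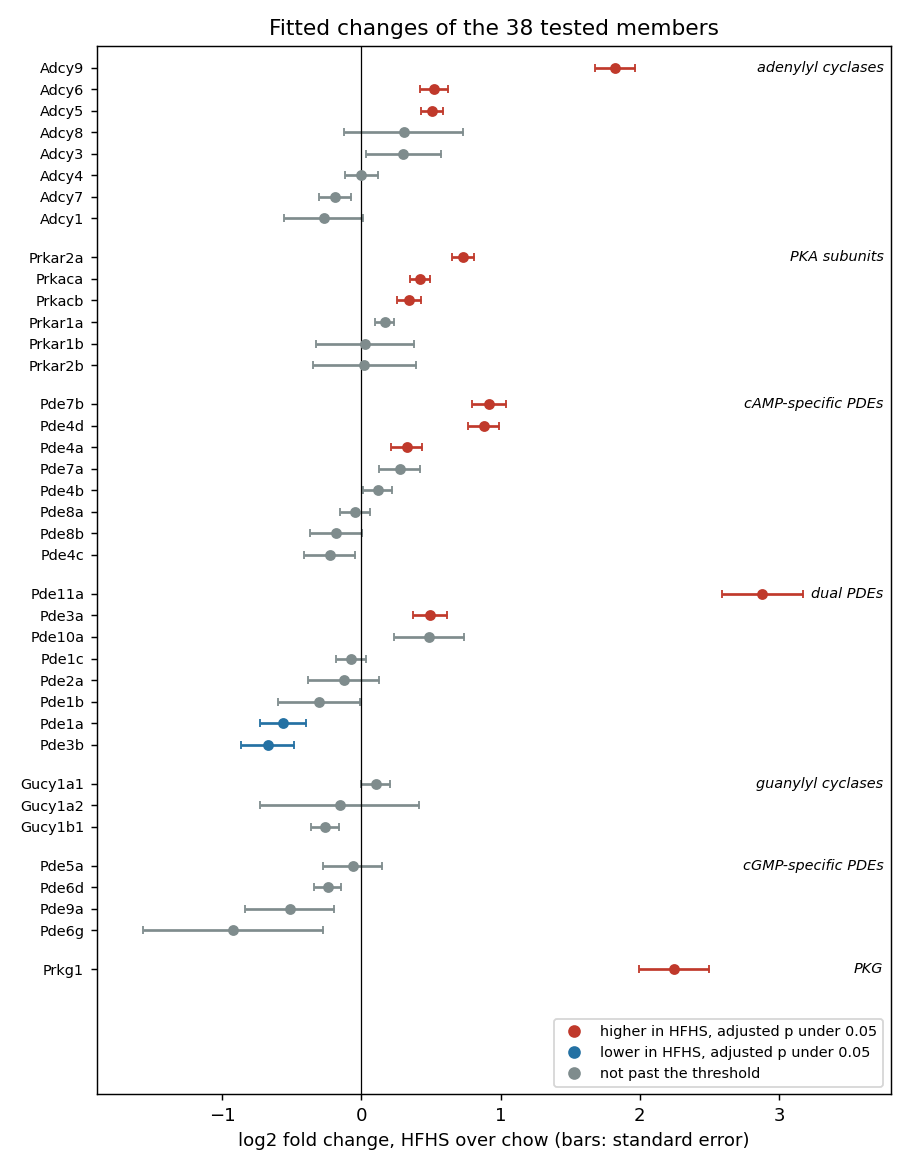
Log2 fold change of HFHS over chow for the 38 tested members, grouped by role (x axis, log2; bars, standard error of the fit; n = 3 HFHS and 2 chow libraries). Pde11a, Prkg1 and Adcy9 lie farthest to the right at 2.88, 2.24 and 1.82, and Pde3b and Pde1a are the coloured points on the left.

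Adenylyl cyclases make cAMP. Of the 10 genes, 8 were tested, and Adcy9, Adcy6 and Adcy5 rose. Adcy9 (ENSMUSG00000005580) encodes a widely expressed membrane cyclase that forskolin stimulates poorly. Its gene lies at chr16:4287529-4420498 on the minus strand of GRCm38. It had 16.5, 18.2 and 15.1 CPM in HFHS libraries, against 4.60 and 4.78 CPM in chow libraries. Every HFHS library was more than 3-fold above both chow libraries. The means were 16.6 ± 1.55 CPM in HFHS and 4.69 ± 0.124 CPM in chow (SD, n = 3 and 2). The log2 fold change was 1.82 (SE 0.144; 3.54-fold; edgeR adjusted p = 5.05e-07).

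Adcy6 and Adcy5 encode the calcium-inhibited cyclases that dominate in heart muscle cells. Adcy6 had 195, 219 and 184 CPM in HFHS libraries, against 123 and 156 CPM in chow libraries. The groups did not overlap, and chow replicate 2 lay nearer the HFHS libraries than chow replicate 1. The change was 1.44-fold (log2 0.52, SE 0.102; edgeR adjusted p = 0.00112). Adcy5 had 50.8, 51.1 and 49.9 CPM in HFHS, against 35.3 and 35.9 CPM in chow, with little spread within either group. It was 1.42-fold higher (log2 0.51, SE 0.0809; edgeR adjusted p = 2.30e-04).

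The other 5 tested cyclases did not pass. Adcy4, of the group that G protein beta-gamma subunits stimulate, had 21.9 to 28.3 CPM in HFHS and 22.7 to 26.6 CPM in chow. Adcy7, of the same group, had 15.5 to 17.9 CPM in HFHS and 17.2 to 20.3 CPM in chow (log2 −0.19; edgeR adjusted p = 0.223). Adcy3, Adcy1 and Adcy8 were under 5 CPM in every library. Adcy3 shares 22.1% of its exon bases with Cenpo on the opposite strand, and the files do not say whether counting used strand, so its value is uncertain. Adcy8 was under 1 CPM on average in both groups.

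PKA is a complex of regulatory and catalytic subunits. Of the 6 genes, all tested, Prkar2a, Prkaca and Prkacb rose. Prkar2a, at chr9:108689314-108750436 on the plus strand, encodes the type II alpha regulatory subunit, which anchoring proteins tether to membranes and the cytoskeleton. It had 96.8, 97.9 and 93.0 CPM in HFHS libraries, against 56.1 and 59.7 CPM in chow libraries. The groups stood well apart, with means of 95.9 ± 2.58 CPM in HFHS and 57.9 ± 2.53 CPM in chow (SD, n = 3 and 2). The log2 fold change was 0.73 (SE 0.0767; 1.66-fold; edgeR adjusted p = 6.56e-06).

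Prkaca encodes the main catalytic subunit in heart. It had 210, 203 and 204 CPM in HFHS, against 150 and 157 CPM in chow, a 1.34-fold difference (log2 0.42, SE 0.0700; edgeR adjusted p = 3.14e-04). A processed pseudogene of Prkaca is annotated, and reads could be shared with it. Prkacb, the second catalytic gene, had 75.8, 75.2 and 64.9 CPM in HFHS, against 58.0 and 55.6 CPM in chow. It was 1.27-fold higher (log2 0.34, SE 0.0871; edgeR adjusted p = 0.00678). Prkar1a encodes the type I alpha regulatory subunit and had the highest level per length of all members. It had 448, 468 and 440 CPM in HFHS, against 399 and 406 CPM in chow. The groups did not overlap, but the log2 difference of 0.17 (SE 0.0673) did not pass (edgeR adjusted p = 0.0649). Prkar1b and Prkar2b, the beta regulatory genes, had 1.00 to 2.37 CPM in HFHS and 1.19 to 1.67 CPM in chow.

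The 8 cAMP-specific phosphodiesterases were all tested, and Pde7b, Pde4d and Pde4a rose. Pde7b, at chr10:20398004-20725078 on the minus strand, encodes a high-affinity enzyme insensitive to rolipram. It had 27.3, 26.8 and 23.8 CPM in HFHS libraries, against 15.3 and 12.2 CPM in chow libraries. Its lowest HFHS library exceeded its highest chow library by more than 1.5 times. The means were 26.0 ± 1.91 CPM in HFHS and 13.7 ± 2.15 CPM in chow (SD, n = 3 and 2), and the log2 fold change was 0.92 (SE 0.121; 1.89-fold; edgeR adjusted p = 4.59e-05).

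Pde4d, at chr13:108449948-109953461 on the plus strand, encodes rolipram-sensitive isoforms that associate with beta-adrenergic receptors and with the ryanodine receptor complex in heart. It had 19.0, 17.9 and 17.8 CPM in HFHS, against 9.85 and 10.0 CPM in chow. Spread within the groups was small, with means of 18.2 ± 0.709 CPM in HFHS and 9.93 ± 0.103 CPM in chow (SD, n = 3 and 2). The log2 fold change was 0.88 (SE 0.114; 1.84-fold; edgeR adjusted p = 4.30e-05). Pde4a, another rolipram-sensitive gene, was the called member nearest the threshold. It had 67.8, 66.6 and 65.6 CPM in HFHS, against 44.9 and 61.7 CPM in chow, with the chow libraries far apart. The 1.25-fold difference (log2 0.32, SE 0.110; edgeR adjusted p = 0.0316) was lost without chow replicate 1, where the log2 value was 0.11 and the adjusted p 0.390. Its adjusted p also missed the threshold without any 1 of the HFHS libraries, at 0.0954, 0.0833 and 0.0531.

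Pde7a, the most abundant of the role per exon length over all libraries, had 62.3, 59.8 and 79.3 CPM in HFHS, against 44.4 and 66.5 CPM in chow. Its groups overlapped, and it did not pass (log2 0.28; edgeR adjusted p = 0.159). Without each library in turn, the Pde7a log2 value ran between 0.01 and 0.60. Pde4b, the third rolipram-sensitive gene named here, had 30.9 to 35.1 CPM in HFHS and 27.8 to 33.0 CPM in chow. Pde8a had 18.1 to 20.4 CPM in HFHS and 18.6 to 21.5 CPM in chow. Pde4c and Pde8b had 4.95 to 12.6 CPM in HFHS and 5.90 to 14.9 CPM in chow. The edgeR adjusted p-values of these 4 genes were 0.347 to 0.776.

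Dual phosphodiesterases moved in both directions. Pde11a (ENSMUSG00000075270), at chr2:75989141-76338774 on the minus strand, encodes an enzyme that cleaves cAMP and cGMP at similar rates. It had 7.81, 7.61 and 8.92 CPM in HFHS libraries, from 125, 106 and 132 counts, against 1.57 and 0.611 CPM in chow libraries, from 29 and 11 counts. All HFHS libraries lay far above both chow libraries, which differed from each other. The means were 8.11 ± 0.707 CPM in HFHS and 1.09 ± 0.678 CPM in chow (SD, n = 3 and 2). The log2 fold change of 2.88 (SE 0.290; 7.36-fold; edgeR adjusted p = 4.54e-06) was the largest of the members. Leaving out a chow library gave a log2 value of 3.71 (replicate 1) or 2.36 (replicate 2).

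Pde3a encodes the cGMP-inhibited enzyme that acts on cAMP near the sarcoplasmic reticulum and is the target of milrinone. It had 136, 129 and 100 CPM in HFHS, against 76.4 and 96.6 CPM in chow, and the lowest HFHS library was only slightly above chow replicate 2. The difference was 1.41-fold (log2 0.49, SE 0.124; edgeR adjusted p = 0.00595). Without chow replicate 1 it was 0.34 on the log2 scale, with an edgeR adjusted p of 0.0577. Pde3b, at chr7:114415281-114539251, encodes the related enzyme best known for its part in the action of insulin in fat and liver. It had 5.50, 4.45 and 4.26 CPM in HFHS, against 6.66 and 8.50 CPM in chow. The groups did not overlap, and it was 1.59-fold lower in HFHS (log2 −0.67, SE 0.188; edgeR adjusted p = 0.0116). Without chow replicate 2 the log2 value was −0.49 and the edgeR adjusted p 0.115.

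Pde1a, a calcium- and calmodulin-stimulated enzyme found in vascular smooth muscle and fibroblasts, also fell. It had 5.0, 5.02 and 6.01 CPM in HFHS, against 7.80 and 8.0 CPM in chow, with no overlap. It was 1.48-fold lower (log2 −0.56, SE 0.167; edgeR adjusted p = 0.0161). The edgeR adjusted p was 0.0589 without HFHS replicate 1, 0.0619 without HFHS replicate 2 and 0.0552 without chow replicate 2. Pde1c, the calmodulin-stimulated gene prominent in heart muscle cells, had 44.4, 48.0 and 36.0 CPM in HFHS, against 45 and 44.9 CPM in chow (edgeR adjusted p = 0.636). Pde10a, Pde1b and Pde2a had 1.44 to 4.87 CPM in HFHS and 2.17 to 3.28 CPM in chow, and none passed. Pde2a, the cGMP-stimulated enzyme, shares 64.3% of its exon bases with an overlapping gene model on the same strand, so its count is uncertain.

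**Figure D2:**
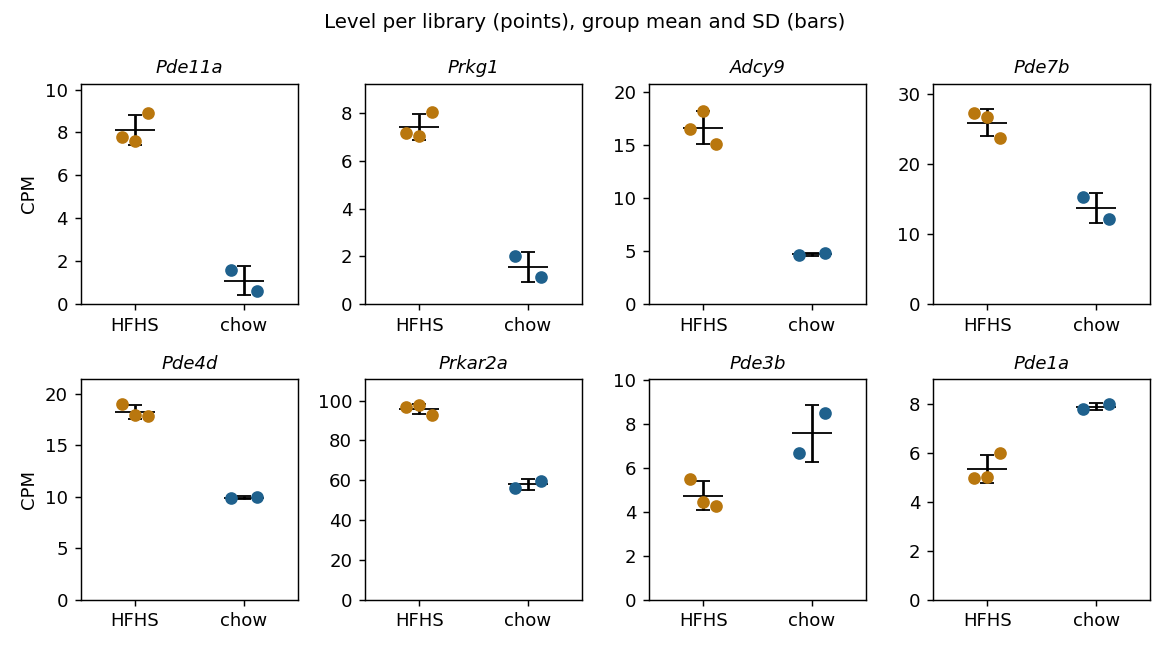
Level of 8 members in each library (y axis, CPM from 0; points, 3 HFHS and 2 chow libraries; line and bars, mean and SD). In the first 6 panels every HFHS point lies above both chow points, and for Pde3b and Pde1a every HFHS point lies below them.

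The bulk tissue holds several cell types, and fewer cells of a type cannot be told apart from less RNA per cell. Beside the fall of Pde3b and Pde1a, 6 of 6 fibroblast markers fell, with a summed level of 641.6 to 680.6 CPM in HFHS and 1010 to 1093 CPM in chow. For endothelium 4 of 6 markers fell, with sums of 762.2 to 782.0 CPM in HFHS and 992.9 to 1017 CPM in chow. For macrophages 7 of 7 fell, with sums of 161.1 to 189.4 CPM in HFHS and 414.2 to 484.8 CPM in chow. For red blood cells 5 of 5 fell (median log2 −1.99), with sums of 250.2 to 523.7 CPM in HFHS and 1484 to 1699 CPM in chow. Over all genes, 18.7% were lower. With the exon length and GC offsets given below, 4 fibroblast, 5 endothelial, 7 macrophage and 5 red blood cell markers were lower. Those offsets left 16.5% of all genes lower. The fat markers Adipoq, Plin1, Cidec and Lep had too few counts to be tested, and Fabp4, which endothelium also expresses, fell. The part of these cells in the members' differences was not tested. For cardiomyocytes 5 of 10 markers rose and 3 fell, so the list did not move in 1 direction.

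Most genes of the cGMP arm had few counts. A member was counted as near the floor when it was not tested or averaged under 1 CPM in both groups. That held for 13 of 19 cGMP members, 3 of 24 cAMP members (Adcy8, Adcy2, Adcy10) and 0 of 8 dual enzymes. Of the 6 cGMP members above the floor, Prkg1 rose and the other 5 did not pass.

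Prkg1 (ENSMUSG00000052920), at chr19:30564489-31765033 on the minus strand, encodes the type I kinase through which cGMP relaxes smooth muscle and restrains growth of heart muscle cells. It had 7.18, 7.03 and 8.04 CPM in HFHS libraries, from 115, 98 and 119 counts, against 2.00 and 1.11 CPM in chow libraries, from 37 and 20 counts. All 3 HFHS libraries lay more than 3-fold above the higher chow library. The means were 7.42 ± 0.544 CPM in HFHS and 1.56 ± 0.631 CPM in chow (SD, n = 3 and 2). The log2 fold change was 2.24 (SE 0.250; 4.74-fold; edgeR adjusted p = 1.08e-05); leaving out a chow library gave 2.73 (replicate 1) or 1.88 (replicate 2). Prkg1 is abundant in smooth muscle. Of 6 smooth muscle markers 1 rose (Smtn) and 1 fell (Acta2), with summed levels of 267.3 to 294.0 CPM in HFHS and 236.1 to 239.7 CPM in chow. Smtn was the largest part of that sum, with a mean of 169 CPM in HFHS and 112 CPM in chow. Myh11 (37.5 CPM in HFHS, 30.8 CPM in chow) and Mylk (33.1 CPM in HFHS, 29.6 CPM in chow) also averaged higher in HFHS. Lower on average in HFHS were Acta2 (39.6 CPM, against 48.1 CPM in chow), Tagln (5.01 against 6.92 CPM) and Cnn1 (1.06 against 1.92 CPM). Of 6 pericyte markers 2 rose and 3 fell, with sums of 1210 to 1288 CPM in HFHS and 1393 to 1403 CPM in chow. The part of these cells in the Prkg1 difference was not tested.

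Soluble guanylyl cyclase, the nitric oxide receptor, is a pair of an alpha and a beta subunit. Gucy1a1 and Gucy1b1 lie 17.7 kb apart on chromosome 3. Gucy1b1 encodes the beta subunit and had 25.2, 24.5 and 21.9 CPM in HFHS, against 29.7 and 27.5 CPM in chow. All HFHS libraries were lower, but the log2 value of −0.26 (SE 0.0995; edgeR adjusted p = 0.0535) was just outside the threshold, the nearest of the members not called. Gucy1a1 encodes the alpha subunit and had 26.7, 26.8 and 23.0 CPM in HFHS, against 23.8 and 23.7 CPM in chow, with overlap (log2 0.10; edgeR adjusted p = 0.463). The less common alpha subunit gene Gucy1a2 had 0.270 to 0.749 CPM in HFHS and 0.444 to 0.596 CPM in chow. The receptors of natriuretic peptides also make cGMP but carry Npr symbols, so they are not members and are given with the partner genes.

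Of the cGMP-specific phosphodiesterases, Pde6d was the most abundant per exon length. It is classed here by name, while its protein is known as a carrier of prenylated proteins. It had 21.6, 20.4 and 22.1 CPM in HFHS, against 26.1 and 24.5 CPM in chow, without overlap (log2 −0.24, SE 0.0971; edgeR adjusted p = 0.0626). Pde5a, the target of sildenafil, had 7.68, 5.46 and 4.53 CPM in HFHS, against 6.33 and 6.0 CPM in chow (edgeR adjusted p = 0.849). Pde9a, a high-affinity cGMP enzyme, had 3.31, 1.44 and 2.37 CPM in HFHS, against 4.11 and 2.72 CPM in chow (edgeR adjusted p = 0.226). The spread of Pde5a and Pde9a within HFHS was wide relative to the difference. Pde6g, an inhibitory subunit of the photoreceptor enzyme, was under 1 CPM in every library.

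The 13 untested members had at most 7 counts in any library. They were Adcy2, Adcy10 (the bicarbonate-sensitive soluble cyclase), Gucy1b2, Gucy2c (the intestinal guanylin receptor), Gucy2d, Gucy2e and Gucy2f (sensory cyclases in mouse), Gucy2g, Pde6a, Pde6b, Pde6c and Pde6h (photoreceptor enzyme subunits) and Prkg2. Pde6c had 0 counts in every library. Prkg2, the type II kinase best known from intestine and bone, had 6, 7 and 6 counts in HFHS libraries, against 0 and 1 in chow libraries. The pooled 19 against 1 counts gave a ratio of 14.5 with a 95% exact counting interval of 2.31 to 603. With no filter on low counts its edgeR adjusted p was 0.0199. Such differences rest on single counts in chow, and for the other 12 no difference was detectable at this depth.

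**Figure D3:**
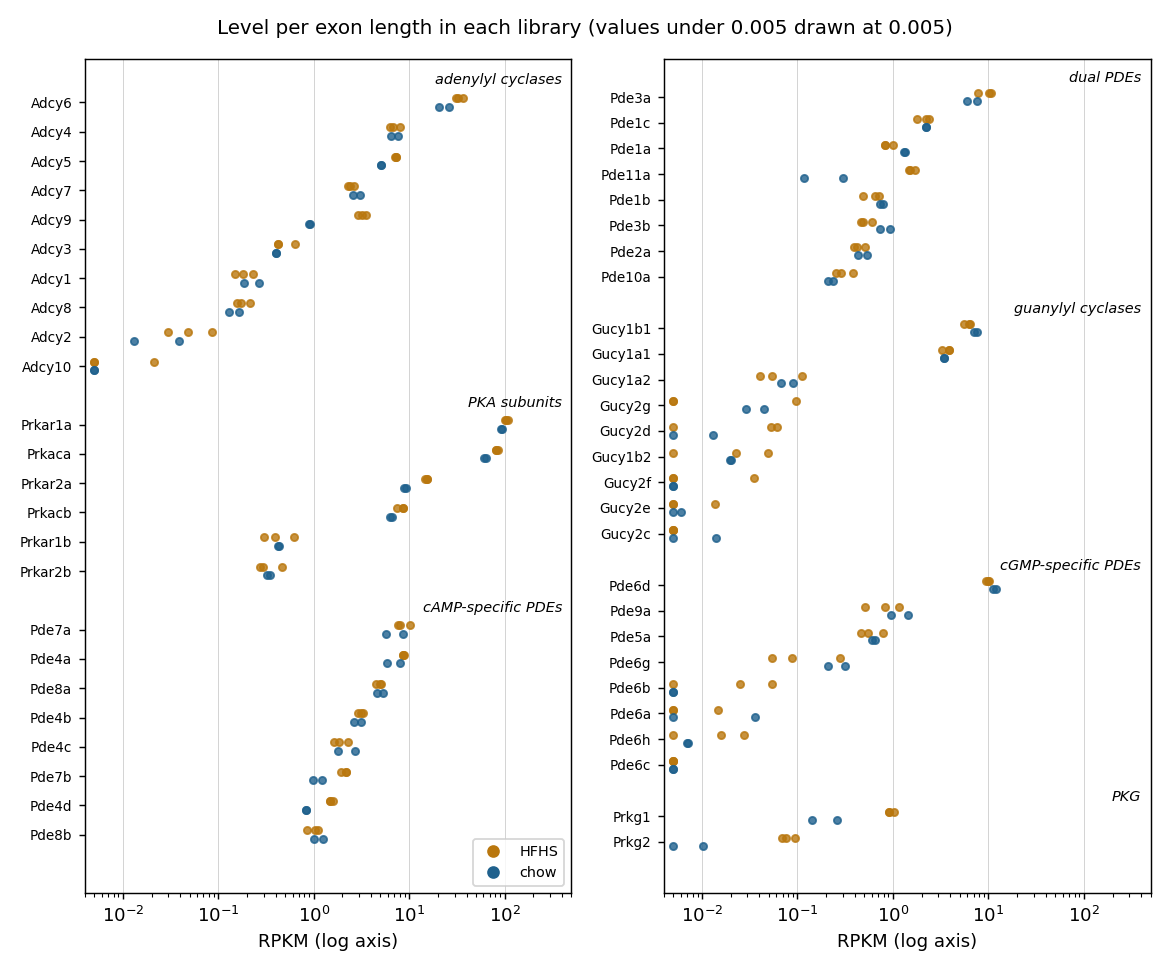
Level of all 51 members per exon length in each library (x axis, RPKM, log scale; points, 3 HFHS and 2 chow libraries; values below the axis minimum are drawn at it). PKA subunits Prkar1a and Prkaca lie at the top of the range, and most guanylyl cyclase and Pde6 points lie at the bottom.

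Levels were compared between genes as CPM per kilobase of exon (RPKM). Prkar1a was highest, with a mean of 105 RPKM in HFHS and 93.1 RPKM in chow, followed by Prkaca with 82.7 RPKM in HFHS and 61.8 RPKM in chow. Adcy6 was next at 33.2 RPKM in HFHS and 23.1 RPKM in chow, then in HFHS Prkar2a at 15 RPKM, with 9.07 RPKM in chow. Pde6d, at 9.81 RPKM in HFHS and 11.6 RPKM in chow, ranked above Prkar2a in chow, where the pair did not overlap. The most abundant phosphodiesterases able to cleave cAMP were Pde3a (9.57 RPKM in HFHS, 6.79 in chow), Pde4a (8.71 in HFHS, 6.96 in chow) and Pde7a (8.67 in HFHS, 7.16 in chow). These 3 neighbours had ranges that overlapped within each group. The genes with the largest fold changes were low: Adcy9 at 3.2 RPKM in HFHS and 0.902 in chow, Pde11a at 1.56 in HFHS and 0.209 in chow, and Prkg1 at 0.951 in HFHS and 0.200 in chow.

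Within some sets of genes, the shares of single genes differed between the groups. In the PKA catalytic pair Prkaca held 91.0% in HFHS and 90.5% in chow, with overlap. Shares of a set are not independent, since a rise of any gene lowers the others. Prkar2a made up 12.5% ± 0.186 of the summed RPKM of the 4 PKA regulatory genes in HFHS and 8.81% ± 0.247 in chow, while Prkar1a made up 86.9% ± 0.281 in HFHS and 90.4% ± 0.259 in chow (SD, n = 3 and 2). Adcy9 supplied 5.91% ± 0.271 of the cyclase sum in HFHS and 2.28% ± 0.193 in chow, and Adcy6 61.4% in HFHS and 58.0% in chow, with overlap. The shares of Adcy4 (13.1% ± 2.14 in HFHS, 17.7% ± 0.0287 in chow) and Adcy7 (4.52% ± 0.127 in HFHS, 7.09% ± 1.62 in chow) were lower in HFHS, without overlap, though neither gene's own level passed the test. Pde11a supplied 3.26% ± 0.290 of the sum of 16 genes able to cleave cAMP in HFHS and 0.554% ± 0.411 in chow. Among 13 genes able to cleave cGMP, Pde3a held 54.5% in HFHS and 46.1% in chow, and Pde11a 9.01% ± 1.71 in HFHS and 1.45% ± 0.961 in chow. For the shares of Prkar2a, Prkar1a, Adcy9, Adcy4, Adcy7, Pde11a and Pde3a given here for non-overlapping groups, the two-sided exact permutation p was 0.2, the smallest that 3 against 2 libraries can give, so the design cannot reach 0.05.

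**Figure D4:**
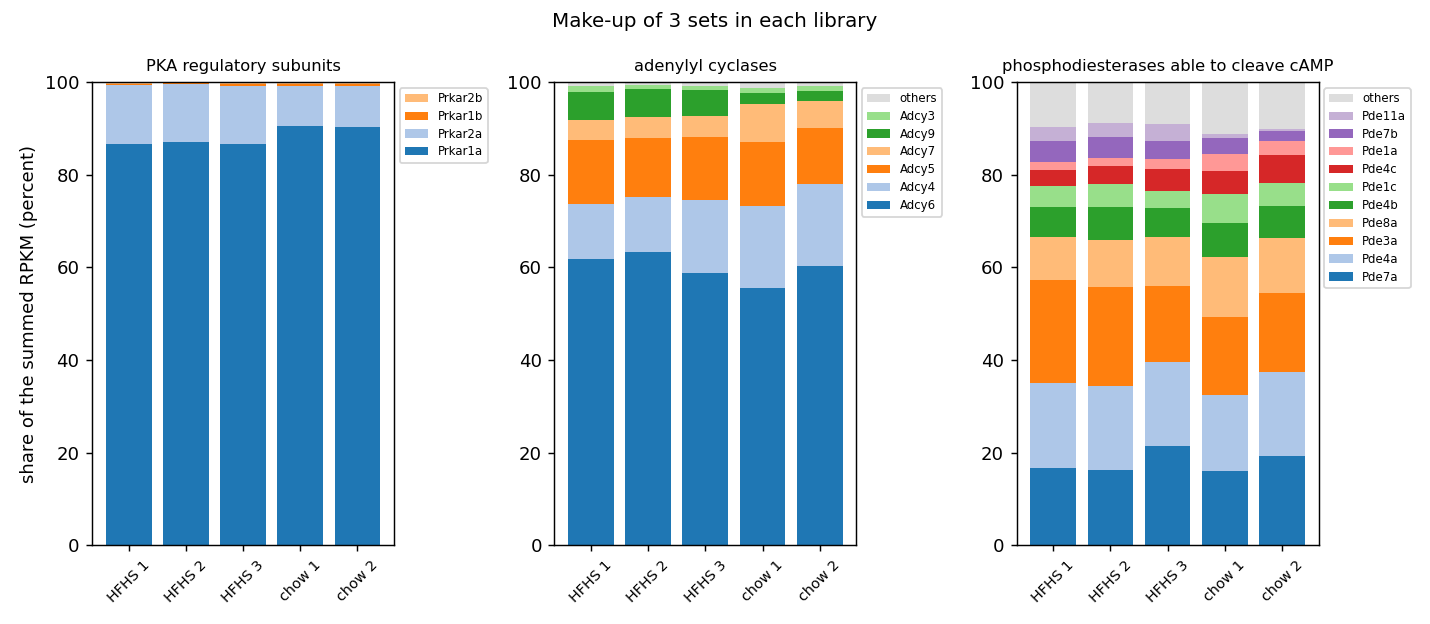
Share of each gene in the summed RPKM of its set in each library (y axis, percent; bars, 3 HFHS then 2 chow libraries). The Prkar2a segment is 12.5% on average in HFHS and 8.81% in chow, and the Adcy9 segment 5.91% in HFHS and 2.28% in chow.

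Summed per role, adenylyl cyclase mRNA was 54.0 ± 3.04 RPKM in HFHS and 39.7 ± 4.41 RPKM in chow, a ratio of 1.36. PKA catalytic mRNA was 90.9 ± 1.88 RPKM in HFHS and 68.3 ± 1.87 RPKM in chow, a ratio of 1.33. PKA regulatory mRNA was 120 ± 3.47 RPKM in HFHS and 103 ± 1.61 RPKM in chow, a ratio of 1.17. The sum of the 16 phosphodiesterases able to cleave cAMP was 47.8 ± 0.226 RPKM in HFHS and 40.1 ± 6.24 RPKM in chow (SD, n = 3 and 2 throughout). Groups did not overlap for any of these sums, and each exact permutation p was again 0.2.

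Gene length moved with the fold changes of all genes, and the members are long. Over the 14221 genes tested the rank correlation of log2 fold change with exon length was 0.43, and over the 38 members it was 0.32, as a description in which the genes share the same 5 libraries. In 10 bins of exon length the median log2 fold change of all genes ran between −0.47 in the shortest and 0.32 in the longest. The median exon length was 6198 bases in tested members and 4009 in all genes tested. For the tested genes of the cAMP arm, the median of their own bins' medians was 0.15. Genomic span, introns included, had a rank correlation with log2 fold change of 0.34 over 14198 genes and 0.32 over the 38 members. The median span was 108920 bases in tested members and 22452 in all genes. Of the 17 tested members in the top of 10 bins of span, 7 rose and 2 fell, with a median of 0.30. Pde11a, Prkg1, Adcy9, Pde7b and Pde4d were among the 7. All genes of that bin had a median of 0.23, and 43.4% were called. Of the 21 tested members in other bins 5 rose and 0 fell, with a median of 0.0006. In those bins 32.1% to 45.4% of all genes were called. The length offsets that follow do not use span. The part of length or span in the members' differences was not tested beyond those offsets.

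With offsets per library for exon length and GC content, 31.0% of all genes were called (14.5% higher, 16.5% lower). Of the members, 13 were then called: 7 higher and 1 lower in the cAMP arm, 1 higher and 3 lower among the dual enzymes, and 1 higher in the cGMP arm. Adcy9 had a log2 value of 1.71 and Prkg1 of 2.07, and Pde11a, Prkar2a, Pde7b, Pde4d, Adcy5, Adcy6 and Prkaca also stayed past the edgeR threshold, as did Pde3b and Pde1a in the lower direction. Pde3a, Prkacb and Pde4a did not, with edgeR adjusted p of 0.304, 0.305 and 0.529. Pde1c (log2 −0.52; edgeR adjusted p = 0.00287) and Adcy7 (log2 −0.38; edgeR adjusted p = 0.0217) were then lower in HFHS. With offsets for median transcript length, 36.8% of all genes were called (18.7% higher, 18.1% lower), and the members' calls were 8 higher and 1 lower in the cAMP arm, 1 higher and 2 lower among dual enzymes, and 1 higher and 1 lower in the cGMP arm. DESeq2 called 30.8% of genes (16.6% higher, 14.2% lower) and, of the members, 9 in the cAMP arm, all higher, 2 higher and 1 lower among dual enzymes and Prkg1.

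**Figure D5:**
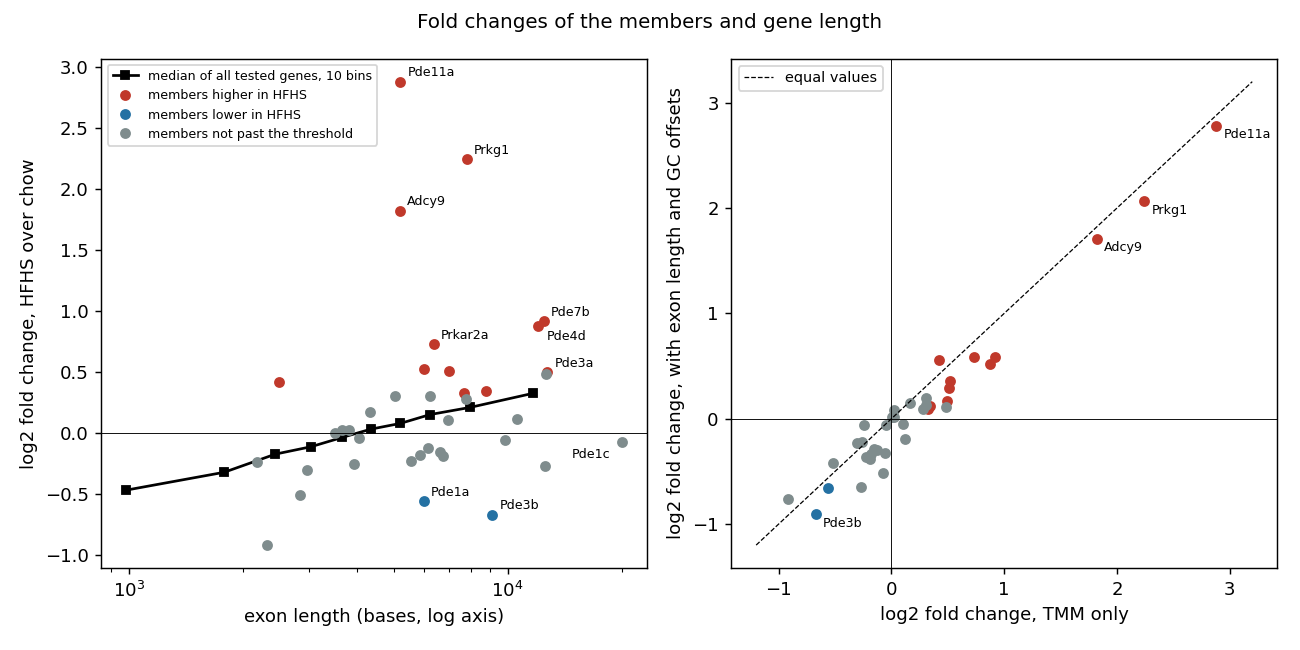
Left, log2 fold change against exon length (log axis) for the 38 tested members, with the median of all tested genes in 10 length bins. Right, the same fold changes with exon length and GC offsets (y axis) against those with TMM scaling alone (x axis); Pde11a, Prkg1 and Adcy9 stay far above 0 on both axes.

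Genes that act with the members were taken from 3 lists. Upstream of adenylyl cyclase, 19 of 22 receptor and G protein genes were tested. Of these, 2 rose and 6 fell (median log2 −0.01), beside 19.4% higher and 18.7% lower over all genes. With the exon length and GC offsets 1 rose and 7 fell (median −0.19), beside 14.5% higher and 16.5% lower over all genes. Chrm2, the muscarinic receptor that inhibits cyclase, had 128, 126 and 106 CPM in HFHS, against 74.2 and 82.3 CPM in chow (1.53-fold higher; edgeR adjusted p = 1.46e-04). Adora2a, a receptor coupled to Gs, had 5.93, 5.74 and 9.87 CPM in HFHS, against 12.8 and 13.1 CPM in chow (log2 −0.85; edgeR adjusted p = 0.00318). The beta-arrestin gene Arrb2 (log2 −0.53; edgeR adjusted p = 0.00354) and the inhibitory G protein gene Gnai3 (log2 −0.39; edgeR adjusted p = 0.00511) were also lower. Adrb1, the main cardiac beta-adrenergic receptor, did not pass, with 11.7 to 13.7 CPM in HFHS and 11.8 to 13.4 CPM in chow.

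Of 28 genes for PKA anchors, PKA inhibitors and other cAMP effectors, 27 were tested, and 11 rose and 4 fell (median log2 0.28), beside 19.4% higher and 18.7% lower over all genes. With the exon length and GC offsets 9 rose and 5 fell, with a median of 0.17; the list's genes are long, with a median exon length of 6336 bases. Pde4dip, which encodes myomegalin, a scaffold that binds Pde4d protein, had 2140, 2250 and 2000 CPM in HFHS, against 897 and 983 CPM in chow (2.27-fold; edgeR adjusted p = 9.22e-08). Akap6, the anchor of PKA at the nuclear envelope of muscle cells, had 225, 232 and 226 CPM in HFHS, against 113 and 109 CPM in chow (2.05-fold; edgeR adjusted p = 1.55e-07). The anchors Akap13 and Cmya5 were 1.93-fold and 1.65-fold higher (edgeR adjusted p = 1.95e-06 and 5.28e-06). These 4 kept their calls with the length offsets, at log2 values of 0.73, 0.77, 0.45 and 0.37. The 3 PKA inhibitor genes did not move together. Pkia, the most abundant, rose to 332 ± 14.8 CPM in HFHS, against 246 ± 17.0 CPM in chow (log2 0.43; edgeR adjusted p = 4.23e-04). Pkig fell to 85.3 ± 2.84 CPM in HFHS, against 122 ± 9.28 CPM in chow (edgeR adjusted p = 1.19e-04), and Pkib averaged 0.598 CPM in HFHS and 1.5 CPM in chow (edgeR adjusted p = 0.0432, and up to 0.258 over the refits). Of the pacemaker channel genes, Hcn4 was higher (log2 0.95; edgeR adjusted p = 0.0184; log2 0.44 when chow replicate 1 was left out, 1.71 when chow replicate 2 was) and Hcn2 lower (log2 −0.47; edgeR adjusted p = 0.0251, and up to 0.101 over the refits). The CREB family gene Crem was also lower (log2 −0.80, edgeR adjusted p = 4.35e-04), with its isoforms not told apart by counts per gene. These 6 genes were named after their values were seen.

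Of 17 genes that supply cGMP or partner PKG, 15 were tested. Of these, 6 rose and 3 fell (median log2 0.05), beside 19.4% higher and 18.7% lower over all genes. With the exon length and GC offsets 4 rose and 3 fell (median −0.01), beside 14.5% higher and 16.5% lower over all genes. Ppp1r12a, the myosin phosphatase subunit that PKG binds, had 37.4, 32.6 and 41.2 CPM in HFHS, against 20.5 and 20.2 CPM in chow (1.82-fold; edgeR adjusted p = 3.25e-05). Npr3, the clearance receptor of natriuretic peptides, had 20.4, 16.9 and 21.3 CPM in HFHS, against 6.33 and 10.9 CPM in chow (2.28-fold; edgeR adjusted p = 1.71e-04). Gtf2i, a transcription factor bound by PKG, was 1.36-fold higher (edgeR adjusted p = 2.37e-04), but with the length offsets its edgeR adjusted p was 0.155. Ddah2, which degrades an inhibitor of nitric oxide synthase, was 1.76-fold lower (edgeR adjusted p = 2.70e-04). Of the natriuretic peptide receptors that make cGMP, Npr1 had 20.5 to 22.4 CPM in HFHS and 27.7 to 28.4 CPM in chow (log2 −0.39; edgeR adjusted p = 0.00505), and Npr2 had 52.0 to 55.3 CPM in HFHS and 40.9 to 43.6 CPM in chow (log2 0.33; edgeR adjusted p = 0.00543).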

How the data were processed

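Each of the 5 libraries had 1 table of raw counts per gene, as deposited by the authors. The submitters' processing notes name STAR 2.5.2b, Trimmomatic 0.36, Subread 1.5.2 with featureCounts and the build GRCm38. Options, strand setting, multimapping and annotation release: not given in the sources used here. Counts of overlapping genes, paralogs and pseudogenes are therefore uncertain. Per the file headers, tables list Ensembl IDs, exon coordinates and exon length. Symbols came from GENCODE M21, in which 49056 of 49315 genes were found; 41 of 51 members had the same start and end there.

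The counts were tested with edgeR 4.0.16 (R 4.3.3; filterByExpr, TMM, glmQLFit and glmQLFTest, HFHS over chow) across all genes, calls being made under 0.05 after Benjamini-Hochberg adjustment. A positive log2 fold change means higher in HFHS, and its standard error was approximated by the coefficient over the square root of F. CPM was computed with TMM-adjusted totals, RPKM as CPM per kilobase of the files' exon length, and marker sums with total counts. The fit was tested on simulated data. Pairs of libraries differed beyond sampling noise (chi-square per degree of freedom of 2.64 to 5.71 within HFHS, 8.84 within chow).

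Members, gene lists and marker lists were chosen with earlier results of these data known. Values per library are given for members called at 1.5-fold or more, the highest RPKM of each role and those nearest the threshold; of each pathway list, the 4 genes with the smallest p are named. Values of other members and of Adrb1, Npr1 and Npr2 were added after they were seen. Alternatives were other scalings, DESeq2 1.42.0, limma-voom (limma 3.58.1), other filters, offsets from a smooth trend on length and GC (mgcv 1.9.3), leaving out libraries and a replicate block. RefSeq promoter windows (GRCm38.p6) were searched for motifs, and protein sequences were not used here.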

Additional observations from a re-analysis of the deposited data

How the results depend on the processing

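Of the 14 members called, 9 stayed called in every refit at the same threshold and 0 changed sign, and 11 passed an adjusted p of 0.01. Of the members not called, 7 were called in at least 1 refit, and 17 in none, 11 of which changed sign in some refit. For the cAMP arm the median log2 fold change was 0.29, against 0.11 with exon length offsets, 0.15 with transcript length offsets, 0.18 with the replicate block and 0.12 to 0.32 without each library in turn. Its members lower in HFHS numbered 0, against 1 with either offset and 0 to 1 without a library. For the dual enzymes, 2 higher became 1 with either offset and 1 to 2 without a library. Their 2 lower became 1 with DESeq2, 0 at an adjusted p of 0.01 and 0 to 2 without a library, and their median of −0.10 became −0.26 with exon length offsets, −0.02 with the block and −0.20 to −0.02 without a library. The cGMP median of −0.20 became −0.06 with the block and −0.30 to −0.01 without a library. The cGMP arm had 2 higher with no filter (Prkg1, Prkg2), and 2 lower with upper-quartile scaling and 1 with transcript length offsets, against 0. All genes lower in HFHS numbered 2661, and 1729 at an adjusted p of 0.01. The sign turned for Pde4c, not called, which ran between -0.493 and 0.0925 without each library, the higher without chow replicate 2, and for Pde1c, not called, between -0.160 and 0.0426, the higher without HFHS replicate 3, and 0.0381 with the replicate block. The cause of these shifts was not tested, beyond the fewer libraries in a refit that leaves one out.

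Replicate numbers are not said to pair the libraries. Same-numbered libraries had deviations that correlated at 0.035 and 0.026, and the block on the replicate number, which leaves HFHS replicate 3 without a partner, gave 2753 genes higher and 2579 lower. At 14362766 to 17774735 counts a library, 16 members were near the floor, where only large differences can be seen. A lone chow library in a refit is assumed to vary like the HFHS libraries.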
